A study of Homo sapiens with 36 samples.

Results

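Trametinib, an inhibitor of the kinases MEK1 and MEK2, was given for 24 hours at 30 nM to the EpCAM-negative, CD49f-negative cells (NEG) of SUM-229PE, a triple-negative breast cancer line grown from a pleural effusion, and the histone mark H3K27ac was mapped by chromatin immunoprecipitation and sequencing. The comparison rests on 4 of the 36 samples of the series, 2 libraries of NEG cells under trametinib and 2 of NEG cells under the solvent DMSO. NEG cells had been isolated by sorting from one line, and the cells carrying both surface proteins (POS) were treated in the same way. Beside each NEG result stand the POS cells at 24 hours (3 libraries with 30 nM trametinib, 3 with DMSO) and NEG cells at day 14 of 10 nM trametinib against day 0 (2 libraries each), which share no library with the 4 described here. JUNB, a subunit of the transcription factor AP-1, had been mapped in DMSO-treated cells (2 NEG and 2 POS libraries).

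H3K27ac marks active enhancers and promoters, and a change of the mark at a region is commonly read as a change of enhancer activity. MEK phosphorylates the kinase ERK, which acts on ETS and AP-1 transcription factors. ERK signalling also switches on its own brakes, among them the phosphatase DUSP6 and the Sprouty and SPRED proteins, so these genes are widely used as a readout of ERK output.

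The 4 libraries held 4711000 to 5179400 counts in 54454 regions of 1001 bases (hg19), the median region holding 49 to 51 of them, and 54409 regions passed the filter on low counts. Replicates correlated across regions with r of 0.959 (trametinib) and 0.968 (DMSO) on log2 CPM (counts divided by a library's effective size). The labels tie no replicate to a separate culture. The spread that p-values rest on may therefore be technical. Counting error alone leaves low regions imprecise, and reads carried no molecular identifiers. Genes were placed on hg19 from recalled positions, as no hg19 annotation was used, so exons, introns and UTRs were not assigned. Of 233 such genes, all were on the chromosome that RefSeq gives, and 220 had a length within 10 kb of it. The table lists few regions at gene starts: a region centre lay within 1 kb of the start of 13 of these 233 genes, against 161 for the JUNB sites. For EPCAM, ITGA6 (which encodes CD49f) and VIM it lists no region, so the sort could not be checked at these genes. Among immune and endothelial markers only PTPRC, the pan-leukocyte antigen CD45, had regions, 2 in all, and neither passed the test.

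H3K27ac rose at some regions and fell at others after 24 hours of trametinib. In edgeR's quasi-likelihood fit (Benjamini-Hochberg adjusted p, threshold 0.05), 9351 regions rose (17.2% of those tested) and 10527 fell (19.3%). The change was 2-fold or more in 2692 that rose (4.95%) and 3388 that fell (6.23%), and 4-fold or more in 103 and 203. The median log2 fold change was 0.77 among regions that rose and -0.79 among those that fell, against 0.04 over all tested regions. With libraries scaled by total counts, more regions rose (10823) than fell (9398), so the excess of losses depends on the scaling. Strong regions were called most often. In the weakest of 5 groups by mean level over the 4 libraries (median 4.49 CPM), 6.61% rose and 3.85% fell, and in the strongest (median 41.3 CPM) 26.0% rose and 35.2% fell. Gains of 2-fold or more did not become more frequent, with 506 in the weakest group and 476 in the strongest. Losses of that size numbered 300 and 1078. Calls were unevenly spread over chromosomes: the share that fell ran from 13.2% on chromosome 22 to 30.9% on chromosome 20, and the share that rose from 12.5% on chromosome 5 to 29.4% on chromosome 16. In the authors' deposited table of the same contrast 6192 regions passed, and each of them was also called here in the same direction.

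Losses at single regions reached more than 8-fold. The 15 lost regions named here are those with the largest fall among regions of at least median level whose groups do not overlap, at least 100 kb apart. They went from a median of 58.4 CPM under DMSO to 7.95 CPM under trametinib. The rule required the lack of overlap, which 31.8% of all tested regions show in this direction, so it is no result about the 15. The largest fall was in ERBB4, the gene of the receptor tyrosine kinase HER4 (chr2:212916417-212917418). H3K27ac there was 77.9 and 77.7 CPM in the DMSO libraries and 8.89 and 9.06 CPM under trametinib. This was a log2 fold change of -3.11 ± 0.15 (SE, edgeR's quasi-likelihood test, adjusted p = 2.59e-91). The region does not speak for the whole gene: of 24 tested regions in ERBB4, 5 fell and 1 rose. A region in IQCJ (chr3:158887534-158888535) was among the strongest named losses before treatment, with 145 CPM in each DMSO library and 17.6 and 19.8 CPM under trametinib. A region between CFAP418 and GDF6, which encodes a ligand of the BMP family, had 160 and 175 CPM under DMSO (chr8:96572328-96573329). It kept 27.7 and 27.6 CPM under trametinib, so it was still stronger after treatment than most regions of the table, whose median was 10.3 CPM.

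Other named losses lay in GLDC, the glycine decarboxylase (chr9:6552084-6553085, 60.6 and 72.5 to 8.49 and 7.41 CPM), in DNMBP (chr10:101691661-101692662) and in SGIP1 (chr1:67029953-67030954). At chr19:8420573-8421574, upstream of ANGPTL4, which encodes an inhibitor of lipoprotein lipase, H3K27ac fell from 26.2 and 32.9 CPM to 3.03 and 5.97 CPM. More named losses lay between LHFPL3 and KMT2E (chr7:104612549-104613550), NMUR2 and GRIA1 (chr5:152602427-152603428), ANTXR2 and PRDM8 (chr4:81048518-81049519), and MAGEB5 and PPP4R3C (chrX:26931743-26932744). Further ones lay between PRSS2 and EPHB6 (chr7:142504918-142505919), STRA8 and CNOT4 (chr7:134975881-134976882), and PEX5L and TTC14 (chr3:180125723-180126724). Log2 fold changes of the 15 lost regions ran from -2.56 to -3.11, with the highest adjusted p at 2.63e-31.

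The 15 gained regions named by the same rule, chosen by fold, started from low levels. They went from a median of 5.47 CPM under DMSO to 29.5 CPM under trametinib, with log2 fold changes of 2.23 to 2.93. The lack of overlap was again required, and 33.2% of tested regions show it in this direction. Gained regions as a whole were not weak at the outset: the median DMSO level was 10.9 CPM in all 9351 and 6.07 CPM in those gained 2-fold or more, against 8.05 CPM in regions not called. The largest rise lay between ADCYAP1 and METTL4 (chr18:2009339-2010340). It had 2.58 and 2.39 CPM in the DMSO libraries and 20.01 and 18.1 CPM under trametinib, a log2 fold change of 2.93 ± 0.26 (SE, edgeR's quasi-likelihood test, adjusted p = 4.66e-28). A gain in EYA4, which encodes a transcriptional coactivator with phosphatase activity, ended at the highest level of the 15 (chr6:133823844-133824845). Its values were 17.3 and 14.1 CPM under DMSO and 80.8 and 78.1 CPM under trametinib. Close behind was a region just beyond the 3′ end of GULP1, an engulfment adaptor (chr2:189495075-189496076), with 12.9 and 11.4 CPM before and 75.0 and 71.3 CPM after treatment.

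PLXNA1, a plexin that serves as a semaphorin receptor, gained at chr3:126729637-126730638, from 11.3 and 9.56 CPM to 65.9 and 54.6 CPM. RABGAP1, a GTPase-activating protein for Rab proteins, gained at chr9:125811257-125812258, from 8.54 and 8.17 CPM to 57.2 and 45.7 CPM. In DPH6, an enzyme of diphthamide synthesis, the region chr15:35653765-35654766 had 8.94 and 5.38 CPM under DMSO and 49.7 and 35.4 CPM under trametinib. In each of these 3 genes the lower trametinib library was more than 3-fold above the higher DMSO library. Gains between SLC7A11, the cystine transporter, and NOCT (chr4:139428647-139429648), and between WDR5 and the retinoid receptor gene RXRA (chr9:137122581-137123582), had log2 fold changes of 2.56 and 2.28. Others lay in PLEKHM3 (chr2:208757169-208758170), in DNM2, the gene of a dynamin that pinches off membrane vesicles (chr19:10877521-10878522), and between TRIM71 and the chemokine receptor gene CCR4 (chr3:32955648-32956649). The last 4 lay between HNMT and SPOPL (chr2:139086577-139087578), COL11A1 and RNPC3 (chr1:103741302-103742303), QRSL1 and MTRES1 (chr6:107246147-107247148), and TRABD2B and SLC5A9 (chr1:48579678-48580679). RefSeq's newer assembly also places CD24, a surface glycoprotein of epithelial and progenitor cells, between QRSL1 and MTRES1, and the position of the region relative to CD24 was not determined.

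**Figure D1:**
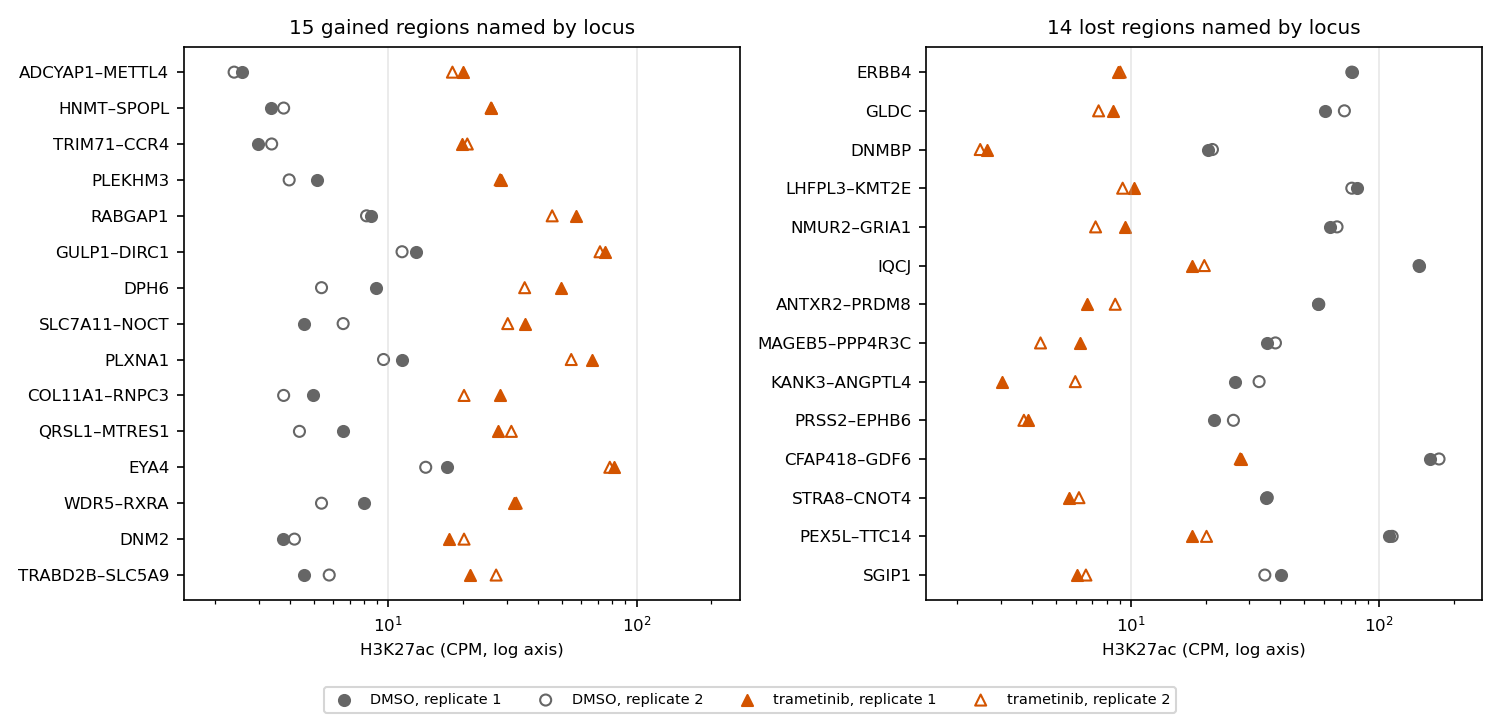
H3K27ac (CPM, log axis) in each of the 4 NEG libraries at the 15 gained (left) and 14 of the 15 lost (right) regions named by locus, with DMSO as circles and trametinib as triangles and replicates 1 and 2 filled and open. In every row both triangles lie on one side of both circles, as the rule required. Gained regions start at 2.49 to 15.7 CPM (mean of DMSO) and lost regions at 20.9 to 167 CPM.

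Some losses lay side by side. Called regions of 1 direction were joined into runs where gaps were at most 25 kb and no region of the other direction came between, and 150 runs of losses held 5 or more regions, against 80 runs of gains. Those runs held 953 of the 10527 losses and 465 of the 9351 gains, while 5115 of 7105 loss runs and 5330 of 6916 gain runs were single regions. Upstream of HMGA2, which encodes an architectural chromatin protein of mesenchymal tumours, all 13 tested regions of chr12:66025456-66172556 fell, with a median log2 fold change of -1.69. Their summed H3K27ac was 1097 and 1159 CPM in the DMSO libraries and 299 and 261 CPM under trametinib. The strongest fall of this run, at chr12:66050745-66051746, was from 215 to 36.7 CPM (means of 2 libraries). Between RBMS3 and TGFBR2, the gene of the type II TGF-beta receptor, all 12 tested regions of chr3:30302097-30413531 fell 2-fold or more. Their sum went from 385 and 394 CPM to 111 and 111 CPM. Within TGFBR2 itself, 2 of 4 regions fell, the strongest from 127 to 76.7 CPM.

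The longest run of losses, 17 of 20 regions over 216 kb (chr2:216499942-216716166), lay between FN1, which encodes fibronectin, and MREG. Its median log2 fold change was -0.86, smaller than that of the HMGA2 run, and its sum went from 1417 and 1441 CPM to 860 and 767 CPM. Upstream of FST, the gene of the activin antagonist follistatin, 14 of 15 regions fell (chr5:52598366-52725971). In the 98 kb before CXCL8, the neutrophil chemokine, 11 of 12 regions fell (chr4:74502678-74601095), and the sum went from 539 and 540 CPM to 219 and 210 CPM. All 11 regions of ITGB5, an integrin beta subunit, fell (chr3:124479853-124605913), with the strongest fall from 102 to 23.2 CPM. The other 2 runs lay between NT5C1B and OSR1 (12 of 15 regions, chr2:19231251-19369623) and over SLC14A1 and SIGLEC15 (12 of 12, chr18:43305442-43420330).

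Runs of gains were shorter. In KLF13, a Krüppel-like transcription factor gene, all 9 regions of chr15:31630572-31702304 rose, and their sum went from 121 and 120 CPM to 256 and 261 CPM. Upstream of COL11A1, a fibrillar collagen gene, all 8 regions of chr1:103611110-103687267 rose 2-fold or more, from a sum of 64.6 and 60.4 CPM to 212 and 195 CPM. PLXNA1 and its surroundings held 7 gained regions of 7 (chr3:126720924-126809305, sum 80.7 and 85.1 to 200.1 and 198 CPM), and MYLK, the myosin light chain kinase gene, 7 of 8 (chr3:123320647-123380150). In MYLK the strongest gain was from 12.9 to 43.7 CPM. The longest 2 runs of gains lay on chromosome 8, between PEX2 and PKIA (12 of 16 regions, chr8:78718556-78853158) and between PVT1 and GSDMC (11 of 15, chr8:129875919-130012122), with median log2 fold changes of 0.82 and 0.67. A run over GULP1 and past its 3′ end held 8 of 11 (chr2:189437556-189496076), and one over SCHIP1 held 9 of 11 (chr3:159504379-159584429). In total 9 runs of gains held as many regions as the last one named, and the larger median decided between them, a choice made after the data were seen.

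**Figure D2:**
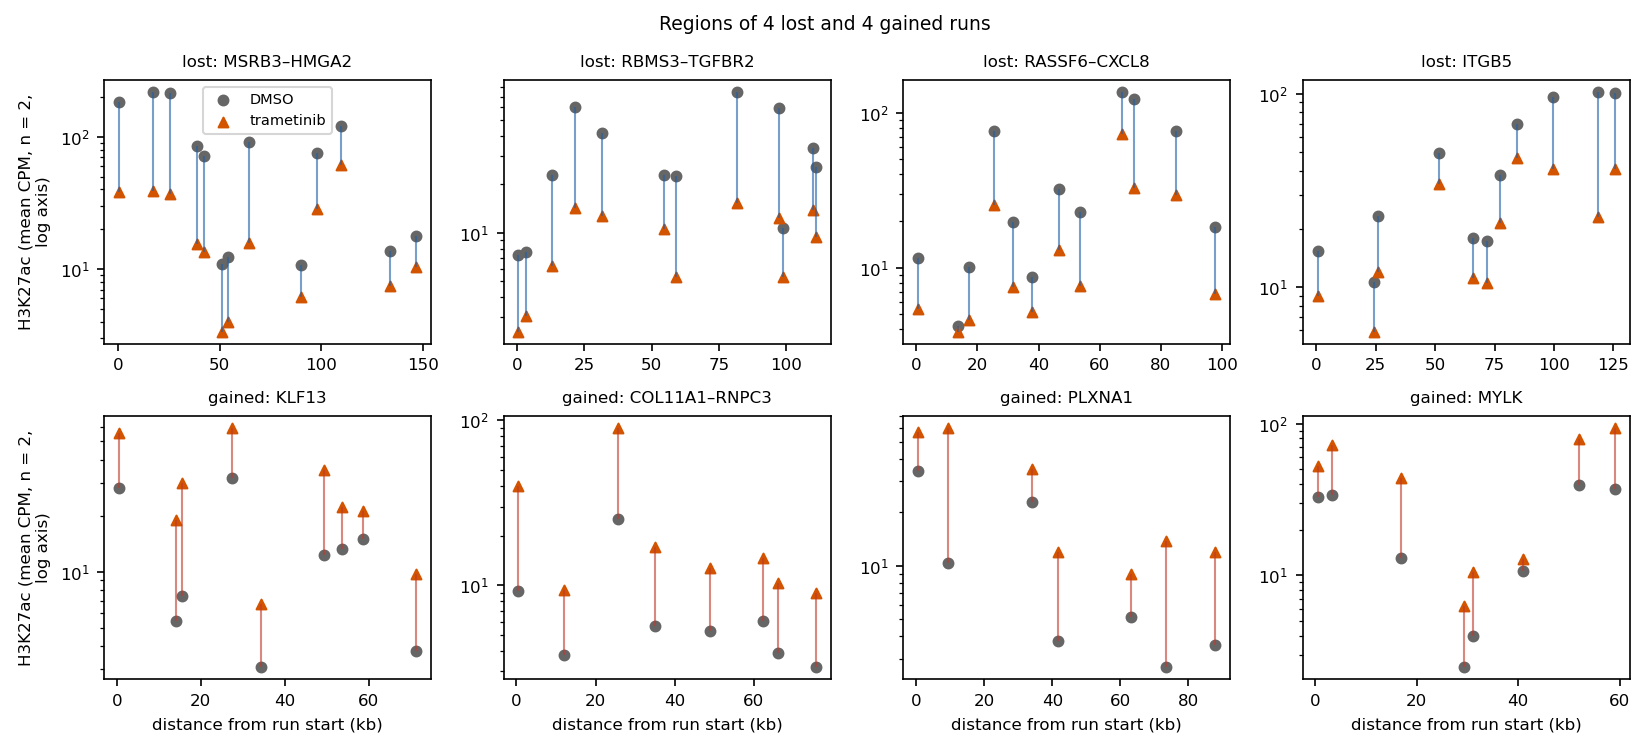
Mean H3K27ac (CPM, n = 2, log axis) of each tested region of 4 lost (top) and 4 gained (bottom) runs against its distance from the start of the run (kb), DMSO as circles and trametinib as triangles, joined by a line. In the HMGA2 run all 13 triangles lie below their circles, and in the COL11A1 run all 8 lie above.

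Regions of ERK feedback and output genes fell more often than they rose. This list of 18 genes was chosen with results of these data known, and its direction is not independent evidence. In the window from 10 kb before the start to the end of each gene, 12 of its genes had 43 tested regions. Of these, 21 fell and 3 rose, which is 48.8% and 6.98% against 19.3% and 17.2% of all tested regions, and the median log2 fold change was -0.52 against 0.04. Of the 6 regions at a gene start, 5 fell and none rose, and the sixth, at EPHA4, had a log2 fold change of 0.21. The strongest fall lay in ETV1, an ETS factor of the PEA3 family, at chr7:13959068-13960069. H3K27ac there was 86.6 and 86.7 CPM under DMSO and 19.4 and 18.5 CPM under trametinib, a log2 fold change of -2.19 ± 0.13 (SE, edgeR's quasi-likelihood test, adjusted p = 4.18e-62). The ETV1 start region fell from 39.7 and 38.4 CPM to 17.6 and 14.8 CPM. Its paralogs moved the same way: ETV5 fell at its start (chr3:185824875-185825876) from 56.0 and 57.4 CPM to 21.8 and 18.5 CPM, and ETV4 (chr17:41608128-41609129) from 16.5 and 23.3 CPM to 4.65 and 5.77 CPM.

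Among the inhibitors of the pathway, the DUSP6 start region (chr12:89747168-89748169) had 169 and 177 CPM under DMSO and 97.6 and 90.6 CPM under trametinib, a log2 fold change of -0.88 ± 0.10. SPRY1, a Sprouty inhibitor of receptor signalling, fell at its start from 87.4 and 93.6 CPM to 51.7 and 42.8 CPM. In both genes every trametinib value was below every DMSO value, as in 31.8% of all tested regions. SPRED2, an inhibitor of RAF activation, fell in 5 of 7 regions, the strongest from 31.2 and 32.5 CPM to 12.3 and 12.6 CPM. SPRED1 had 2 of 10 regions higher and none lower in the same window, and the one with the larger change lost the call in 4 of the 9 alternative analyses that tested it. IER3, an immediate early gene, had 1 region, which did not pass the test. Of the ligands and receptors on the list, HBEGF, an EGFR ligand, fell from 8.15 and 10.2 CPM to 4.04 and 3.50 CPM. EPHA4 fell in 2 of 3 regions.

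Since few regions lay at starts, the window was widened to 100 kb on each side of each gene, a choice made after seeing the data. In the wider window 67 of 165 regions of the ERK list fell and 12 rose (40.6% and 7.27%, against 19.3% and 17.2% of all tested regions). SPRY4, with no region in the narrower window, had 5 of 6 regions lower. The strongest of them, chr5:141742208-141743209, went from 39.7 and 37.5 CPM to 8.49 and 8.44 CPM. Near PHLDA1, an ERK-induced gene, 6 of 15 fell, the strongest at chr12:76337830-76338831 from 125 and 130 CPM to 30.3 and 21.01 CPM. Near DUSP5, a nuclear ERK phosphatase, 6 of 8 fell and none rose, and near DUSP6 8 of 11. Near SPRED1 2 of 14 rose and 2 fell, the largest change being a fall from 32.6 and 38.2 CPM to 13.9 and 16.9 CPM. EGR1, an immediate early gene, was an exception with 2 of 5 regions higher and none lower, the stronger from 6.36 and 4.18 CPM to 15.2 and 9.89 CPM. Around MYC 2 of 5 fell and 1 rose.

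The cytokine list had 13 genes, of which 10 had regions. In the narrower window 6 of its 14 regions (42.9%) fell and none rose, against 19.3% and 17.2% of all tested regions. The median log2 fold change there was -0.51. In the wider window 46 of 96 fell and 8 rose (47.9% and 8.33%). The genes CXCL1, CXCL2, CXCL3 and CXCL8 lie in one cluster on chromosome 4, so regions in the wider window are shared between them. CXCL8 fell from 19.1 and 17.7 CPM to 6.67 and 6.80 CPM in the region ahead of its start (chr4:74600094-74601095). CXCL1 fell at its start (chr4:74734028-74735029) from 30.4 and 29.3 CPM to 14.6 and 16.7 CPM. The CXCL2 region had 158 CPM under DMSO and 154 CPM under trametinib (means) and did not pass the test. G1 regulators fell in 14 of 34 regions and rose in 4 (41.2% and 11.8%). Of the 14, 11 lay in CDK6, the kinase partner of D-type cyclins. The strongest fall in CDK6 was from 25.6 and 21.3 CPM to 8.08 and 5.97 CPM (chr7:92254328-92255329), while its start region had 65.7 CPM under DMSO and 76.0 CPM under trametinib and did not pass the test. With DESeq2 in place of edgeR, 6 G1 regions fell. In the wider window the G1 list came closer to all regions, with 25.0% lower and 17.9% higher.

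Receptor tyrosine kinases fell in 27 of 99 regions and rose in 10 (27.3% and 10.1%, against 19.3% and 17.2% of all tested regions). With DESeq2, 17 fell and 3 rose. DDR2, a collagen receptor, fell from 74.5 and 76.3 CPM to 18.8 and 16.5 CPM in 1 of its 4 regions (chr1:162660095-162661096), and ROR1 fell in 9 of 22. EGFR fell in 5 of 11, the strongest of them weak at the outset with 8.54 and 6.37 CPM. DDR1, also a collagen receptor, rose in both of its regions. PDGFRA fell in 1 of 8 and IGF1R fell in 4 and rose in 3 of 14.

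Mesenchymal genes rose in 13 of 69 regions and fell in 10 (18.8% and 14.5%), shares near the 17.2% and 19.3% of all tested regions. With DESeq2, 5 rose and 6 fell. In the wider window 16.1% of the mesenchymal regions rose and 20.9% fell. PRRX1, a mesenchymal homeobox factor, fell from 136 and 156 CPM to 49.9 and 55.6 CPM (chr1:170677074-170678075). COL5A1, a fibrillar collagen gene, rose in 5 of 9 regions and fell in 1, with the strongest gain from 4.37 and 4.38 CPM to 11.3 and 14.0 CPM. SPARC, a matrix glycoprotein gene, rose near its start from 20.7 and 19.3 CPM to 35.0 and 38.3 CPM. Among epithelial genes 7 of 20 regions rose and 3 fell (35.0% and 15.0%). KRT5, a basal keratin, rose at its start region from 24.0 and 26.1 CPM to 44.3 and 47.2 CPM and at a further region from 4.77 and 7.37 CPM to 15.8 and 18.5 CPM. KRT8, a luminal keratin, rose from 95.8 and 92.0 CPM to 165 and 160 CPM (chr12:53301411-53302412). TP63, the basal transcription factor of the same list, fell at its start region from 62.2 and 65.7 CPM to 40.2 and 42.6 CPM, and of its 9 regions 2 fell and 1 rose. GRHL2, an epithelial transcription factor, rose in 3 of 5 regions, whereas the CDH1 region fell from 13.7 to 9.68 CPM and lost that call in 7 of the 10 alternative analyses. Basal and luminal cells of another subpopulation would carry the same keratins, and a part of such cells in these results was not tested.

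In the TGF-beta list 10 of 43 regions rose and 7 fell (23.3% and 16.3%, against 17.2% and 19.3% of all tested regions). With DESeq2, 4 rose and 3 fell. In the wider window the direction of this list turned, with 20 of 136 regions higher and 37 lower (14.7% and 27.2%). TGFBR3, the co-receptor betaglycan, rose in 4 of 6, and TGFB2, a ligand, fell in 3 of 7. YAP and TEAD genes rose in 10 of 50 and fell in 11. TEAD1, a DNA-binding partner of YAP, rose in 6 of 17 and fell in 1, and that one was the strongest change, from 116 and 120 CPM to 49.1 and 47.0 CPM (chr11:12715272-12716273). With DESeq2, 1 YAP and TEAD region rose. In the wider window 16.4% of the YAP and TEAD regions rose and 29.1% fell. Among interferon and antigen presentation genes, 1 of 12 regions rose and 4 fell (8.33% and 33.3%). The one that rose was the STAT2 start region (chr12:56752085-56753086), from 31.8 and 33.3 CPM to 82.5 and 80.9 CPM, a log2 fold change of 1.33 ± 0.12 for this interferon-signalling factor. The list's direction depends on the window, since 11.3% fell and 21.3% rose in the wider one, and on the test, since 1 region fell with DESeq2. For AP-1 subunits the table had 7 regions, at FOSB, FOSL2, JUND and ATF3. FOSB and JUND rose near their starts, by 0.50 and 0.48 on the log2 scale, and FOSL2 fell in 1 of 2. Of matrix proteases and inhibitors, 3 of 11 regions rose and 2 fell (27.3% and 18.2%). TIMP3, a metalloproteinase inhibitor, had the strongest gain, from 5.56 and 4.58 CPM to 16.98 and 15.7 CPM. GAPDH, the one reference gene with a region, had 122 and 132 CPM under DMSO and 135 and 145 CPM under trametinib and did not pass the test. For AP-1 subunits the wider window held 73 regions, of which 26 fell and 15 rose (35.6% and 20.5%).

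**Figure D3:**
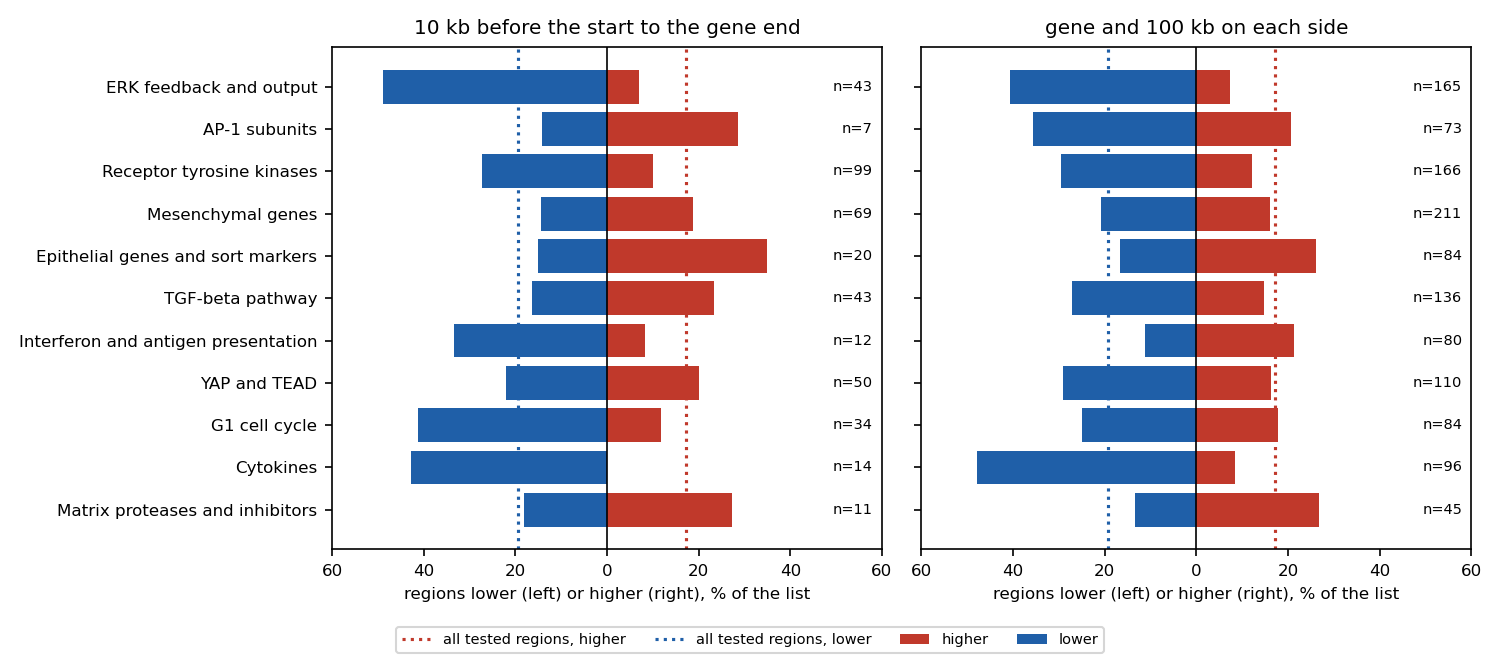
Share of tested regions that fell (left, blue) or rose (right, red) in each gene list with 5 or more regions, in windows from 10 kb before the start to the gene end (left panel) and with 100 kb on each side (right panel), with dotted lines at the shares of all tested regions (19.3% and 17.2%). The ERK list has the largest share that fell in the narrower window (48.8%) and the cytokine list in the wider one (47.9%), each with the other list second.

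JUNB sites of untreated cells were more frequent in lost than in gained regions at a like mean H3K27ac level over the 4 libraries. Sites were listed over POS and NEG cells together and no minimum level in NEG was required, so a site need not be strong in NEG. The site between TRIM71 and CCR4, for example, had 1.43 CPM in NEG and 3.24 CPM in POS. A JUNB site lay in 61.8% of all tested regions, and the share rose with the H3K27ac level. Within the weakest of the 5 level groups, 64.7% of regions that fell held a site, against 25.0% of those that rose and 15.3% of those not called. In the middle group (median 10.3 CPM) the shares were 87.8%, 59.7% and 64.8%, and in the strongest 95.3%, 91.4% and 91.7%. Where a site was present, its median JUNB level in NEG cells was 23.5 CPM in lost regions of the strongest group, against 12.4 CPM in gained ones. In all 5 level groups the share was largest in the regions that fell. These are shares with no test, since neighbouring regions are not independent. The groups rest on the mean of DMSO and trametinib libraries, while JUNB was mapped under DMSO. At a like mean, lost regions have more H3K27ac under DMSO than gained ones, so DMSO levels were not matched. Over all level groups the median DMSO level was 23.0 CPM in lost and 10.9 CPM in gained regions. Of the named regions, 10 of 15 lost and 4 of 15 gained ones held a site. Both shares were below those of all regions lost or gained 2-fold or more (89.8% and 55.9%). JUNB was stronger in NEG than in POS at the lost region between NMUR2 and GRIA1 (42.9 against 1.98 CPM), and as strong in both at that in IQCJ (36.4 against 35.3 CPM).

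**Figure D4:**
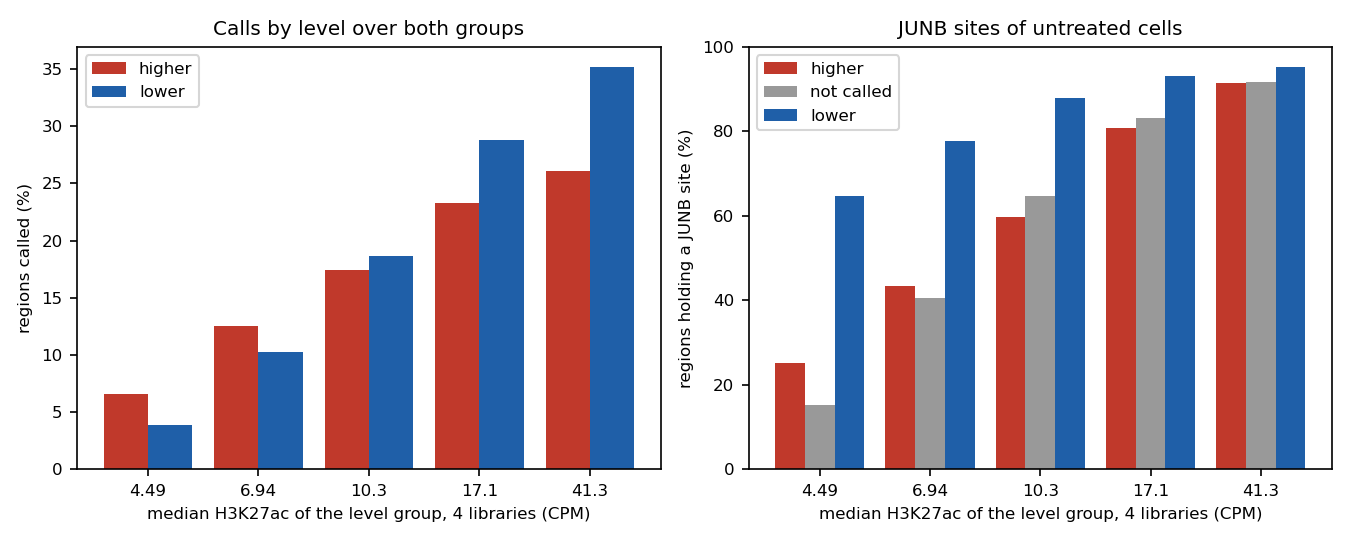
Left, share of regions that rose (red) or fell (blue) in 5 equal groups by mean H3K27ac over the 4 libraries. Right, share of regions that hold a JUNB site of untreated cells, by call and level group. From the weakest to the strongest group the share of lost regions with a site goes from 64.7% to 95.3%, above both other bars in each group.

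Promoter sequences are shown for the 4 listed genes with the largest falls at the start among those matched, to set letters, JUNB sites and H3K27ac side by side. Of 20 listed genes with a called start region, 13 matched a RefSeq promoter by symbol (GRCh38.p14). The 250 bases before each start were searched on both strands for the AP-1 motif TGACTCA, the ETS motif CCGGAAG and the cyclic AMP response element TGACGTCA, none of which overlap in the sequences shown. Of the 13 windows 2 held the AP-1 motif, 2 the response element and 1 the ETS motif. Of all 35116 RefSeq promoters, 4.20% hold the AP-1 motif, 8.52% the ETS motif and 1.65% the response element in such a window. F3 is tissue factor, the starter of coagulation, and PLAUR is the urokinase receptor. Matches are in capitals and all sequences run 5′ to 3′ on the strand of the gene.
F3 (chr1:94541760-94542009, minus strand): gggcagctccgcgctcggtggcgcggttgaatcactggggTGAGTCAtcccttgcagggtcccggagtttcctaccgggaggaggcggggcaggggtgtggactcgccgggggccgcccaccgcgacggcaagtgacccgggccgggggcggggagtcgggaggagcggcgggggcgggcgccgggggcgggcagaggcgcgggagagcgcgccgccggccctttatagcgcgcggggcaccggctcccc
PLAUR (chr19:43670170-43670419, minus strand): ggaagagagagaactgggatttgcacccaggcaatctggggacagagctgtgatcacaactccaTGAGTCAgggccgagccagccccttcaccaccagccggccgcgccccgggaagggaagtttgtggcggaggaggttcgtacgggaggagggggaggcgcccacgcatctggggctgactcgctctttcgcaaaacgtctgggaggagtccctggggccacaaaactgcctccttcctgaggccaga
CXCL1 (chr4:73869143-73869392, plus strand): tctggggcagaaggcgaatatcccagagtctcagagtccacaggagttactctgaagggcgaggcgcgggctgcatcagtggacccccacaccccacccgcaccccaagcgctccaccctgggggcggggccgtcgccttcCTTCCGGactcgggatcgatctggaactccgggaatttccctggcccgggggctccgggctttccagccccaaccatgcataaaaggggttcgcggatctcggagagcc
DUSP6 (chr12:89352502-89352751, minus strand): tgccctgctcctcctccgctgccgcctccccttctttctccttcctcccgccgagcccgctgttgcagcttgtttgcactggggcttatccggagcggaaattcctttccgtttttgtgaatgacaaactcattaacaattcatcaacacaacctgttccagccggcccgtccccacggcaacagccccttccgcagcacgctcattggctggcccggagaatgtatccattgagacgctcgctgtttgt

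The F3 promoter holds an AP-1 motif 210 bases before the start, and PLAUR holds one 186 bases before it. CXCL1 has an ETS motif 109 bases before its start, and the DUSP6 window has none of the 3 motifs. In untreated NEG cells a JUNB site covered the bases 58 to 259 before the F3 start (recalled hg19 position) with 17.3 and 24.8 CPM. In POS that site had 31.5 and 33.7 CPM. A site with 21.5 and 26.7 CPM in NEG and 27.1 and 26.4 CPM in POS lay 15 to 216 bases before the DUSP6 start. The PLAUR start had a JUNB site with 16.6 and 17.3 CPM in NEG and 6.27 and 5.56 CPM in POS. That site reached 40 bases before the start and did not cover the AP-1 motif 186 bases before it. No site lay within 250 bases of the CXCL1 start. Under trametinib the F3 start region fell from 36.8 and 38.4 CPM to 22.2 and 22.4 CPM, and that of PLAUR from 72.3 and 70.5 CPM to 41.6 and 43.5 CPM. The centres of the start regions lay at -1103.5 bases from the start for F3, -1372.5 for DUSP6 and 1083.5 for PLAUR (negative is before the start). For these genes the H3K27ac region thus covered neither the printed bases nor the JUNB site, and the fall was not measured over them. A match of letters is not evidence of binding, and the H3K27ac regions themselves were not read for motifs.

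Most regions that changed 2-fold or more in NEG and had a partner in POS cells changed there in the same direction. Of the 2692 NEG regions gained 2-fold or more, 750 had a partner in the POS table by 50% reciprocal overlap, and 477 of these rose in POS (63.6%) and 35 fell. Of the 3388 lost ones, 1507 had a partner, and 1332 fell (88.4%) and 11 rose. Over all POS regions 26.7% rose and 26.0% fell. All 6 named losses with a partner also fell in POS, ERBB4 from 40.9 to 3.58 CPM. Of the 5 named gains with a partner, 4 rose in POS, and the region in PLEKHM3 fell there, from 14.0 to 8.02 CPM. The difference in response was tested as an interaction over 18205 matched regions, of which 4655 (25.6%) were called. The named regions and the region taken for each listed gene were chosen by their NEG values, which this test uses too. For PLEKHM3 the log2 fold changes in that fit were 2.68 in NEG and -0.72 in POS, a difference of 3.41 ± 0.29 (SE, edgeR's quasi-likelihood test, adjusted p = 3.32e-16). For ERBB4 they were -3.05 and -3.44, a difference of 0.39 ± 0.26 that did not pass (edgeR, adjusted p = 0.291).

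Among listed genes, the region with the largest change in NEG could be matched for 43, and 15 of these differed between NEG and POS, each with the higher value in NEG. Over all matched regions 25.6% differed, and 55.1% of those had the higher value in NEG (61.0% when scaled by total counts). At DUSP6 the log2 fold change was -0.82 in NEG and -2.24 in POS, a difference of 1.42 ± 0.19, and at ETV1 it was -2.13 and -3.41 (difference 1.27 ± 0.24). SMAD6, an inhibitor of BMP signalling, rose in NEG by 0.88 and fell in POS with a value of -1.61 (chr15:67055604-67056605), the largest difference of the 15 at 2.49 ± 0.18. PDGFRA fell in both, with -0.69 in NEG and -2.44 in POS. KRT8 rose by 0.85 in NEG and had 0.18 in POS. The HMGA2 run fell in POS in 11 of 11 regions tested there, and that upstream of TGFBR2 in 7 of 9. No POS region was listed in the COL11A1 run.

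In NEG cells at day 14, a lower dose and longer time, 831 of the 2-fold gains had a partner and 685 rose (82.4%), against 24.8% of all regions there. Of the 2-fold losses 1934 had a partner and 1318 fell (68.1%), against 23.8%. The day 14 table lists fewer regions than the others, 28179 tested. All 7 matched named losses fell at day 14, with smaller values than at 24 hours in each case, such as -1.73 against -2.96 in IQCJ. These losses were chosen for the largest falls at 24 hours, which favours smaller values elsewhere, so the smaller size is no result about day 14. Of 11 matched named gains, 10 rose. DPH6 rose from 6.11 to 92.0 CPM at day 14, a log2 fold change of 3.92 against 2.57 at 24 hours, while the region between WDR5 and RXRA had -0.20 and did not pass the test. Doses and times differ, so the difference between 24 hours and day 14 was not tested. ITGB5, with 11 of 11 regions lower at 24 hours, had 4 higher and 4 lower of 10 at day 14. The MYLK, PLXNA1 and COL11A1 gains were present at day 14 in 5 of 5, 6 of 6 and 4 of 4 regions listed there. Other runs of gains were higher there only in part: KLF13 in 2 of 6 and GULP1 in 1 of 3. The runs between PEX2 and PKIA, between PVT1 and GSDMC and over SCHIP1 had 3 of 6, 3 of 5 and 2 of 3 higher, each with 1 lower. The losses upstream of TGFBR2 were present in 8 of 8, and those between FN1 and MREG in 7 of 16, with 1 higher.

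**Figure D5:**
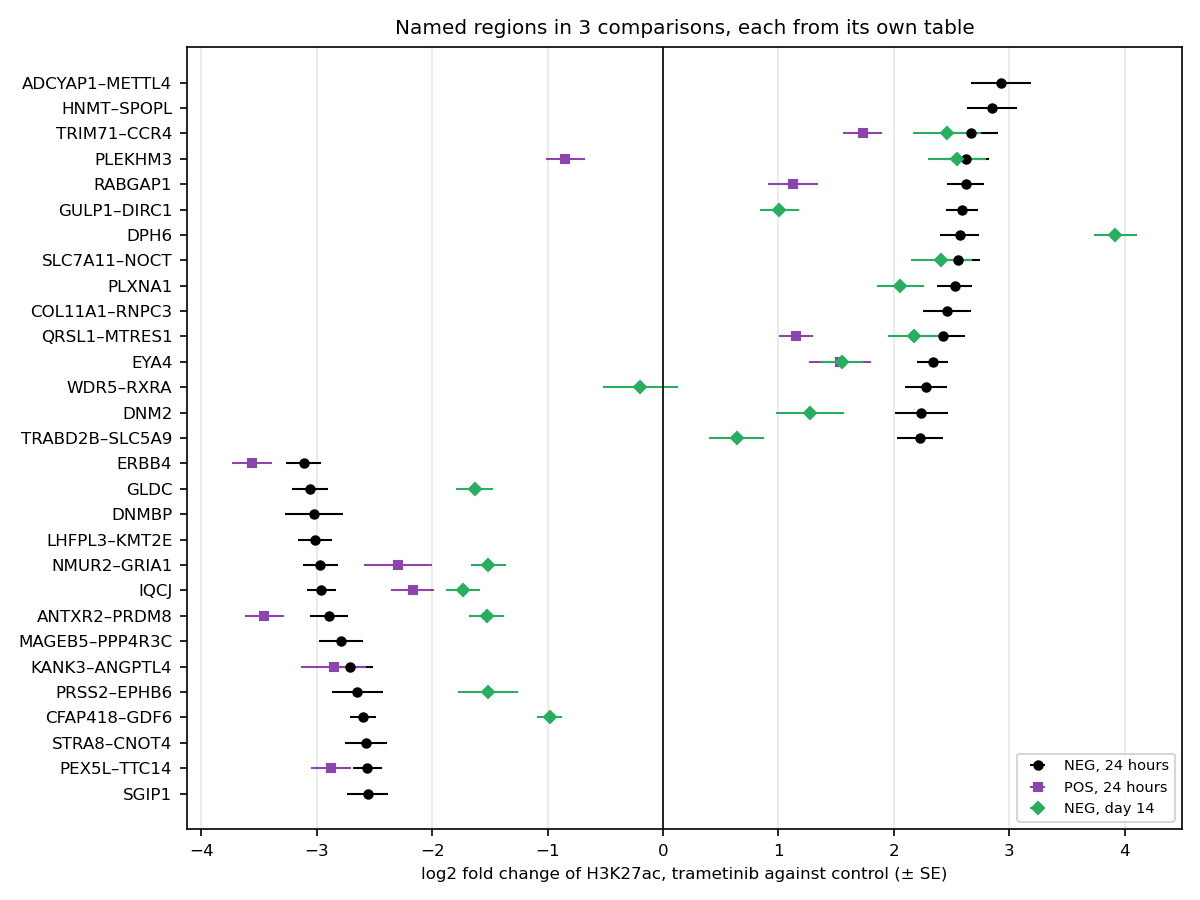
Log2 fold changes (± SE) at the named regions, 15 gained and 14 lost, in NEG at 24 hours (circles), POS at 24 hours (squares) and NEG at day 14 (diamonds), each from its own table, with no symbol where that table lists no partner. PLEKHM3 is the only row with POS on the other side of 0 and a called difference, and DPH6 has its day 14 value beyond its 24 hour value.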

How the data were processed

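The 4 libraries are those whose table the authors named for acute trametinib in NEG cells. Its trametinib columns carry the code GSK and were taken as that arm. All columns were mapped. Tools listed in the submitters' processing notes are STAR 2.5.2b, cutadapt 1.12, MACS2, featureCounts and DESeq2, on hg19, without settings. The authors deposited raw counts per region for each library, not normalized. Region names carry a trametinib library in 31380 cases and a DMSO library in 23074. Direction went with the name: 8464 regions named for trametinib rose and 1309 fell, while 887 named for DMSO rose and 9218 fell. The list of regions thus comes from the libraries compared here, and its effect on the counts of gains and losses was not tested. Coordinates are printed as the authors' tables give them, with start and end 1001 apart. The authors' deposited DESeq2 table gave log2 fold changes and adjusted p-values, which were used for the comparison with the authors' calls, and 14781 of those p-values are missing.

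The test was run in R 4.3.3 with edgeR 4.0.16 and limma 3.58.1, by edgeR's quasi-likelihood test, with TMM factors of 0.969 to 1.03, a minimum count of 10, a prior count of 2 and Benjamini-Hochberg adjustment over all tested regions. The standard error is the log2 fold change divided by the square root of F. POS and day 14 tables were fitted and scaled separately, and levels are not compared across them. Partners needed a 50% reciprocal overlap, and a JUNB site 50% of its length inside the region. Named regions passed the test, changed 2-fold or more, had at least the median level, did not overlap between groups and lay 100 kb apart, the first 15 in each direction. The 8 runs with most regions were named. A run that overlaps a gene carries its name and may extend past it. A start region lay within 2.5 kb of the gene start. Gene positions were written from memory, and in 210 of 210 neighbouring pairs the order matched RefSeq. Members, lists and rules were chosen with earlier results of these data known. Alternatives were DESeq2 1.42.0, other scalings and filters, left-out libraries and a replicate block. Plots were drawn with matplotlib 3.10.9, and tables were joined with pandas 2.3.3 and numpy 2.4.6 under python 3.11.15. The fit was tested on simulated data. Inputs and the remaining tables were not used here, and 1 of the named lost regions is not reported here.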

Additional observations from a re-analysis of the deposited data

Results flagged for a closer look

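In 5 of 11 named regions tested, the 24 hour response differed between NEG and POS by the interaction test in edgeR, against 25.6% of all matched regions. The named regions were chosen for the largest changes in the same NEG libraries. A larger response in NEG is favoured by that choice, so the 5 of 11 is no result about them. The difference in log2 fold change, NEG minus POS, was 3.41 in PLEKHM3, where NEG rose (2.68) and POS fell (-0.72). It was 1.42 in RABGAP1, 1.21 between QRSL1 and MTRES1 and 0.87 between TRIM71 and CCR4, where both rose, and -0.85 in IQCJ, where both fell. These 4 differences had adjusted p-values of 0.000138, 7.91e-05, 0.024 and 0.00713 in that order.

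The region with the largest change in NEG differed as well in 15 of 43 listed genes tested, with the higher value in NEG each time. Of all called differences 55.1% had the higher value in NEG. The difference was 1.42 at DUSP6, 1.27 at ETV1 and 1.09 at EPHA2 of the ERK list. It was 1.75 at PDGFRA and 1.122 at IGF1R among receptors, and 0.64 at TWIST1 and 1.27 at NT5E among mesenchymal genes. For the epithelial genes KRT8 and GRHL2 it was 0.67 and 0.78. SMAD6 of the TGF-beta list had 2.49, with a rise in NEG and a fall in POS. CIITA, the master regulator of MHC class II genes, had 1.74 and NLRC5, its class I counterpart, 0.62. TEAD1 had 0.94. Among cytokines IL6 had 0.63 and IL1A 0.90. The adjusted p-value closest to the threshold was 0.0449, at NLRC5. At TWIST1 and IL1A the NEG value itself (0.27 and 0.24) did not pass the test of NEG alone.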

How the results depend on the processing

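The counts of regions kept within 1.5 times of the values given under other scalings, filters, a mean count of at least 50 and the replicate block. With DESeq2 the POS counts did too, and those of NEG moved further: 4240 NEG regions rose and 5906 fell at 24 hours (10558 adjusted p missing), and 3896 rose and 3605 fell at day 14. Leaving out 1 library at a time gave 6831 to 8107 regions higher and 8140 to 9130 lower. It gave 11080 to 13652 higher and 11590 to 14062 lower in POS, 5536 to 6515 and 5269 to 6378 at day 14, and 3395 to 5299 called differences between NEG and POS. Without trametinib replicate 1, 3 called regions changed sign. Scaling by total counts moved the median of all regions from 0.04 to 0.09 and the balance toward gains. Replicate numbers did not pair the libraries (correlation of deviations -0.0085 over 54409 regions). With the replicate block 9269 rose and 10428 fell. All 30 named regions kept direction and call under every alternative run. Of 88 other called regions of runs and lists, 66 of the 86 with an adjusted p kept the call with DESeq2, and 69 to 80 without 1 library. Among these, CDH1 and NLRC5 each lost it in 7 alternatives and SKIL at its start in 6. Depth was lowest in the weakest of the 5 level groups, where 6.61% rose and 3.85% fell.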
